A study of Rattus norvegicus with 16 samples.

Results

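The genes described are the 2 epoxide hydrolases Ephx1 and Ephx2, the cytochrome P450s (P450s) Cyp2e1, Cyp1a1, Cyp1b1, Cyp4b1 and Cyp27a1, and Por, the electron donor of microsomal P450s. They were measured in the left ventricle of control rats and of rats with a volume-overloaded heart. They are 8 of 14217 genes and are read by 9 of 31042 probe sets, every probe set that the array annotation gives to exactly 1 of these symbols. The genes were chosen by their differences between these same groups of arrays. Those differences, and any calls on them, are therefore a description of the arrays and not a test.

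Cytochrome P450s are haem enzymes that insert 1 atom of oxygen into fatty acids, sterols, retinoids, drugs and other lipophilic compounds. In the endoplasmic reticulum they take their electrons from NADPH through Por, whereas the mitochondrial forms use a ferredoxin. Some of them make epoxides, among them the epoxyeicosatrienoic acids (EETs) of arachidonic acid, lipid mediators of the heart and of vessels, and epoxide hydrolases open such epoxides to diols. Ephx1 is the microsomal hydrolase, best known for epoxides of foreign compounds, and Ephx2 is the soluble hydrolase, the main enzyme that turns EETs into their less active diols.

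The tissue was the left ventricle of adult male Sprague-Dawley rats, 1 array for each rat. There were 4 control rats and 4 rats for each of 3 times, 8, 16 and 24 weeks, with an aortocaval fistula (ACF), a surgical shunt between aorta and vena cava that overloads the heart with volume. The paper places 8 weeks in the phase of compensatory hypertrophy and 16 weeks in that of heart failure. The control arrays are labelled baseline in their titles, whereas the design text speaks of sham rats. If these 4 rats were killed at baseline, their age and lack of surgery cannot be told apart from the absence of ACF. The 4 arrays of the 24-week group are described as 24, 25, 26 and 27 weeks. The hour at which tissue was collected is not given in the sources used here. The design text gives 3 biological replicates, and the labels and the files hold 4 arrays in each group. The methods name a different rat array from the one to which these probe sets belong.

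All values are log2 intensities of the authors, from which the median of the same array was subtracted, so that a value of 1 is a signal at 2 times the median probe set of that array. Levels of different probe sets are not comparable with each other, since each has its own affinity. Before this step the array medians lay at 2 levels, between 6.13 and 6.17 in 9 arrays (4 control, 3 at 8 weeks and 2 at 16 weeks) and between 5.92 and 5.96 in 7 arrays (1 at 8 weeks, 2 at 16 weeks and 4 at 24 weeks). Group differences come from 1 limma fit over all 31042 probe sets, and a probe set was called at a Benjamini-Hochberg adjusted p under 0.05. For each probe set the fit takes 1 spread from all 4 groups. Each SE, interval and call therefore also reflects the spread of groups outside the comparison. Among all probe sets, 9 were called higher and 1 lower at 8 weeks, 1123 higher and 575 lower at 16 weeks, and 84 higher and 52 lower at 24 weeks, each against control. Markers of the labelled tissue lay far above the array median. The summed level of 9 cardiomyocyte genes, Myh6, Myh7 and Tnnt2 among them, lay between 10.92 and 11.18 in ACF arrays and between 11.08 and 11.16 in control arrays on the log2 scale, and 0 of the 9 were called. Macrophage markers were higher in ACF hearts, 1, 8 and 4 of 10 genes at 8, 16 and 24 weeks, with Cd68 at 1.13, Cd163 at 1.85 and Mrc1 at 1.72 log2 units above control at 16 weeks. Of 10 fibroblast markers, 0, 5 and 1 were called higher at the same times. At 16 weeks their median was 0.47 log2 units, with Postn the highest at 4.28 and Tcf21, the 1 below control, at -0.25. In whole tissue, fewer cells of a type and less RNA per cell cannot be told apart.

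Over the 9 probe sets, 0 were called in either direction at 8 weeks, where 0.0322% of all probe sets were called. At 16 weeks 2 were called lower, Ephx1 and Cyp4b1, and 0 higher, against 1.85% of all probe sets called lower and 3.62% called higher. At 24 weeks 0 were called, against 0.438%. The 4 ACF arrays lay wholly below the 4 control arrays for 0, 4 and 2 of the probe sets at 8, 16 and 24 weeks, where this held for 2.16%, 5.42% and 4.51% of all probe sets. The 4 at 16 weeks include Cyp1a1, whose signal was below the array median, with means of -1.36 at 16 weeks and -1.06 in control. These counts describe the genes and carry no weight as evidence, because the same contrasts had been seen when the genes were chosen. The median difference of the 9 probe sets was -0.04 log2 units at 8 weeks, -0.30 at 16 weeks and -0.06 at 24 weeks. That of all probe sets was -0.0053, -0.011 and -0.0012. Por has 2 of the 9 probe sets, and with 1 probe set per gene the medians were -0.20, -0.52 and -0.16. At 16 weeks 8 of the 9 probe sets had a mean below control, with Cyp1b1 as the exception. Both Por probe sets were among the 8, at only -0.04.

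**Figure D1:**
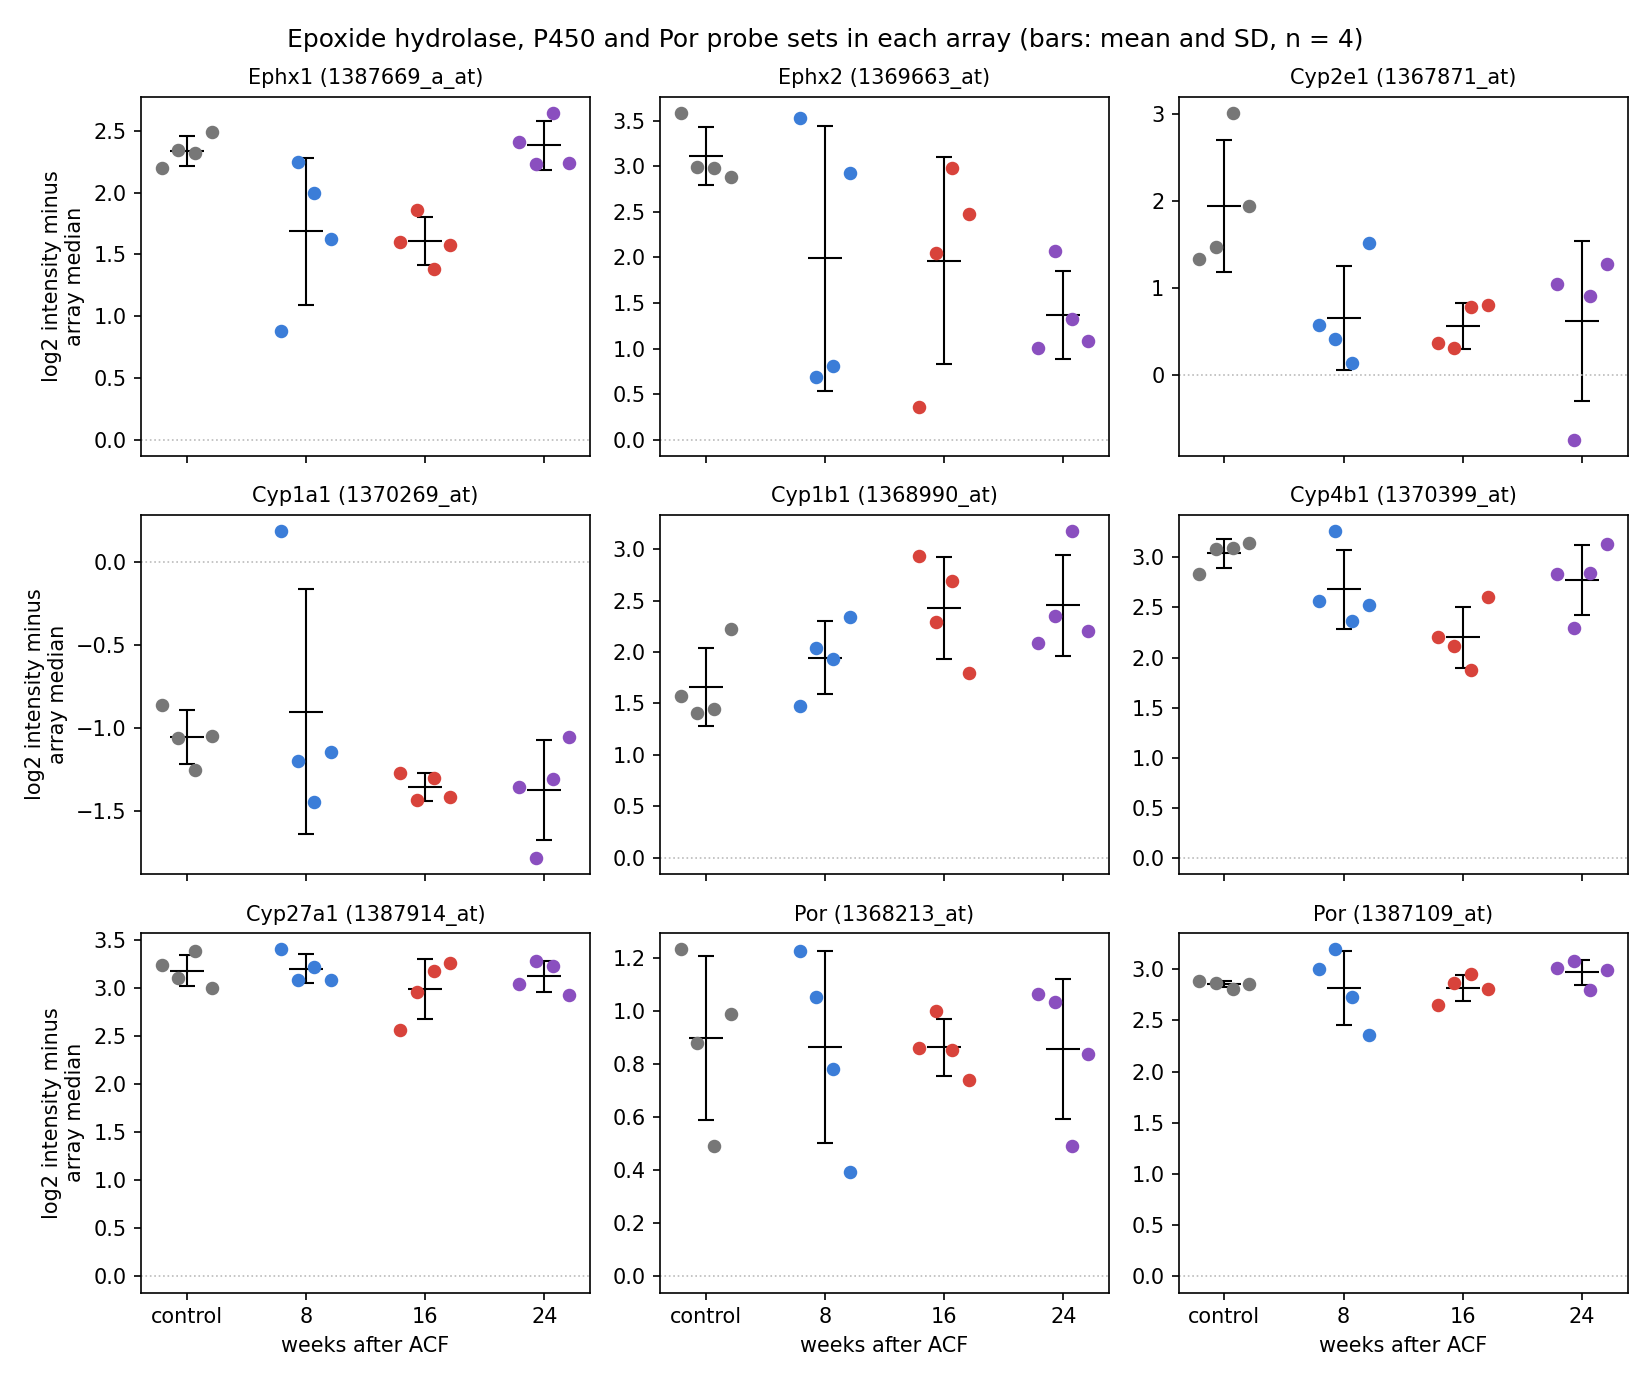
Log2 intensity minus the array median (vertical axis) in each of the 16 arrays for the 9 probe sets, by group (control, then 8, 16 and 24 weeks after ACF). Points are arrays and bars are the mean and SD of 4 arrays; Ephx1 at 16 weeks lies at 1.38 to 1.86, below every control array, and at 24 weeks at 2.23 to 2.64, within or above the control range.

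Ephx1, the microsomal epoxide hydrolase, was lower at 16 weeks and overlapped its control values at 24 weeks. The 4 control arrays held 2.20, 2.34, 2.32 and 2.49 log2 units. The values were 0.88, 2.25, 1.99 and 1.63 at 8 weeks, 1.60, 1.86, 1.38 and 1.58 at 16 weeks, and 2.41, 2.23, 2.64 and 2.24 at 24 weeks. Of the 8-week arrays, replicate 1 lay far below the controls, 2 lay less far below and replicate 2 was within the control range; all 4 arrays at 16 weeks were below every control, and the 24-week arrays overlapped the controls. The means were 1.61 ± 0.20 at 16 weeks and 2.34 ± 0.12 in control (SD, n = 4 each), a log2 difference of -0.73 (SE 0.21, 95% interval -1.17 to -0.30) or 0.602 times control. This difference was called lower, and the call was lost when control replicate 1, 2, 3 or 4 or any 1 of the 16-week arrays was left out, with differences between -0.82 and -0.66. In the 9 arrays of the higher level, 2 of them at 16 weeks, it was -0.61 and not called. The 8-week difference was -0.65 (95% interval -1.09 to -0.21), and it was -0.38 without the lowest array, replicate 1.

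At 24 weeks the difference of Ephx1 from control was 0.04 (95% interval -0.39 to 0.48). All 4 arrays at 24 weeks lay above all 4 at 16 weeks, with a mean of 2.38 ± 0.19 at 24 weeks and 1.61 ± 0.20 at 16 weeks (SD, n = 4 each), a log2 difference of 0.78 (SE 0.21) or 1.71 times. It was the only probe set of the 9 with this separation, which 1.24% of all probe sets showed, and the fit called 0 of the 9 in this comparison, against 0.0129% of all probe sets. The 24-week difference from control was -0.16 on the values as deposited and -0.14 in a fit that takes the array level as a block, so its sign depends on the scaling. Under both settings the 24-week mean was 0.69 above that at 16 weeks.

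The Ephx1 probe set carries the suffix that Affymetrix gives to probe sets shared by alternative transcripts of 1 gene, so its values do not tell these apart. RefSeq holds 2 promoter windows of Ephx1 on rat chromosome 13. The upstream window and that of Cyp4b1 on chromosome 5 are shown because these are the genes called lower at 16 weeks, and that of Cyp1b1 on chromosome 6 because its mean was higher and it is a known target of the aryl hydrocarbon receptor (AHR). Each window runs from 250 bases before to 50 bases after the annotated start in assembly GRCr8 (chr13:95275803-95276102 minus strand, chr5:134393067-134393366 minus strand and chr6:21094315-21094614 plus strand), and capitals mark the searched motifs.
Ephx1: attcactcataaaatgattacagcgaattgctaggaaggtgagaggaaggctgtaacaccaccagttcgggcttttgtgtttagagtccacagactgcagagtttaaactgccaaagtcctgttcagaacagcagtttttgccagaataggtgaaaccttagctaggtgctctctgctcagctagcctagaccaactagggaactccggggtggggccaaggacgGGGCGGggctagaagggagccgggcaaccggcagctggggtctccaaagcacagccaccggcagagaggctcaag
Cyp4b1: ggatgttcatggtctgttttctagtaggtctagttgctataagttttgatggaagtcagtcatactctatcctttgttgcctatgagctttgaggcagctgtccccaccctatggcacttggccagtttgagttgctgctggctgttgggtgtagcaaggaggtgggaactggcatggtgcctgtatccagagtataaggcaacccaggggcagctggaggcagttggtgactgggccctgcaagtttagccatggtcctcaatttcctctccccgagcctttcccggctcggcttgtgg
Cyp1b1: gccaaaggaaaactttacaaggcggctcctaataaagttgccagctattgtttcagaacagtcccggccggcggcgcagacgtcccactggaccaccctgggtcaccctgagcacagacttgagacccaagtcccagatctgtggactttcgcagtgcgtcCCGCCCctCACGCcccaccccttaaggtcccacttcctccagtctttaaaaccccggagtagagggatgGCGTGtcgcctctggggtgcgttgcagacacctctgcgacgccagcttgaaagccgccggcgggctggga

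Both strands of the 7 windows of 6 of the 8 genes were searched for 4 motifs, which overlapped nowhere in them. The letters GCGTG, the core of AHR sites, occurred in 2 of the 7 windows, 2 times in Cyp1b1 and 3 times in Por, and in 29.7% of all 33469 RefSeq windows. GGGCGG, the GC box, occurred in the windows of Ephx1 (upstream), Cyp1b1 and Por and in 33.1% of all windows. TATAAA occurred in the window of Cyp2e1 and in 14.2% of all. TTANGTAA, the D-box bound by the PAR bZIP factors Dbp, Tef and Hlf, occurred in 0 of the 7 windows and in 2.24% of all. A match is only a run of letters, and a window without one says nothing of the rest of the gene. Ephx2 and Cyp1a1 had no window in the table.

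Ephx2, the soluble epoxide hydrolase, had the widest spread of the 9 probe sets. Control arrays held 3.59, 2.99, 2.99 and 2.88 log2 units. The ACF arrays held 3.53, 0.68, 0.81 and 2.93 at 8 weeks, 0.36, 2.05, 2.98 and 2.48 at 16 weeks, and 1.00, 2.07, 1.33 and 1.08 at 24 weeks. The 8-week arrays fell into a pair near the controls and a pair far below them, whereas all 4 arrays at 24 weeks were below every control. The mean was 1.37 ± 0.49 at 24 weeks and 3.11 ± 0.32 in control (SD, n = 4 each). This was a log2 difference of -1.74 (SE 0.58, 95% interval -2.96 to -0.53) or 0.299 times control, and it was not called. The SE rests on the spread shared by the groups, and the SD was 1.45 at 8 weeks and 1.13 at 16 weeks. This 24-week difference was called lower on the values as deposited, where 3694 of all 31042 probe sets were called lower and 145 higher. All 24-week arrays lay at the lower array level and all control arrays at the higher. At 8 and 16 weeks the differences were -1.12 and -1.15 with intervals that included 0. Leaving out 1 array moved them between -1.64 and -0.69 at 8 weeks and between -1.48 and -0.61 at 16 weeks, in each case set by an array of the ACF group. The SD within groups, pooled over the 4 groups, was 0.967 for Ephx2, larger than in 99.8% of all probe sets, whose median was 0.175.

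Among the 8-week arrays, Ephx2 and Ephx1 ran in opposite directions. The array with the lowest Ephx1, replicate 1, had the highest Ephx2 of its group. The array with the highest Ephx1, replicate 2, had the lowest Ephx2. After subtraction of the group means, the correlation of the 2 hydrolases over the 16 arrays was r = -0.72, given as a description. It rests mostly on the 8-week arrays, where the SD was widest for both genes, 0.59 for Ephx1 and 1.45 for Ephx2. At 24 weeks the Ephx1 arrays overlapped control and the Ephx2 arrays did not.

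Cyp2e1, the P450 that oxidises ethanol, ketone bodies and fatty acids, was on average lower at all 3 times, by about the same amount. Control arrays held 1.33, 1.47, 3.01 and 1.94 log2 units. Values were 0.57, 0.41, 0.14 and 1.51 at 8 weeks, 0.37, 0.31, 0.78 and 0.81 at 16 weeks, and 1.05, -0.74, 0.91 and 1.27 at 24 weeks. The 16-week and 24-week arrays were all below the lowest control, and 1 array at 8 weeks overlapped the control range. The log2 differences were -1.28, -1.37 and -1.32 at 8, 16 and 24 weeks (SE 0.41 each), and at 16 weeks the mean was 0.57 ± 0.26 in ACF and 1.94 ± 0.76 in control (SD, n = 4 each), 0.386 times control. None of the 3 differences was called, and control replicate 3, the highest array, moved the 16-week difference to -1.02 when left out. At 24 weeks the difference was -0.86 without replicate 2, the lowest array. The 16-week difference was called lower on the values as deposited, with 1 probe set per gene, with only the upper 50% of probe sets and with the replicate block. The 24-week difference was called lower on the values as deposited. On those values 1259 and 3694 of all 31042 probe sets were called lower at 16 and 24 weeks, against 462 and 145 higher. At 16 weeks, 1 probe set per gene gave 463 of 14217 lower and 829 higher. The upper 50% gave 598 of 15521 lower and 1151 higher. With the replicate block 559 of 31042 were lower and 1181 higher, against 575 and 1123 in the main fit.

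Cyp4b1, a P450 of lung and other tissues outside the liver that hydroxylates fatty acids, was lower at 16 weeks. Control arrays held 2.83, 3.09, 3.09 and 3.15 log2 units. The values were 2.57, 3.26, 2.37 and 2.53 at 8 weeks, 2.20, 2.12, 1.87 and 2.61 at 16 weeks, and 2.84, 2.29, 2.84 and 3.13 at 24 weeks. Every 16-week array was below every control, 3 of the 4 arrays at 8 weeks were below the controls and 1 above them, and at 24 weeks only replicate 2 lay below the control range. The means were 2.20 ± 0.31 at 16 weeks and 3.04 ± 0.14 in control (SD, n = 4 each), a log2 difference of -0.84 (SE 0.20, 95% interval -1.25 to -0.42) or 0.559 times control, which was called lower. The call was lost without control replicate 2 or 3 or 16-week replicate 1, 2 or 3, with differences of -0.97 to -0.73 over the arrays left out. In the 9 arrays of the higher level, 2 of them at 16 weeks, the difference was -0.88 and was called. The calls of Cyp4b1 and Ephx1 carry no weight as evidence, because the same contrast had been seen when the genes were chosen. The 8-week difference was -0.36 (95% interval -0.77 to 0.06). At 24 weeks it was -0.26 (95% interval -0.68 to 0.15), and -0.64 when the array level was fitted as a block. The mean at 24 weeks was 0.57 log2 units above that at 16 weeks, and the arrays of the 2 times overlapped.

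Cyp1b1, which oxidises oestradiol, retinoids and polycyclic hydrocarbons and is found mostly outside the liver, was the 1 gene with a higher mean at 16 weeks. Control arrays held 1.58, 1.41, 1.44 and 2.22 log2 units. The ACF arrays held 1.48, 2.04, 1.93 and 2.34 at 8 weeks, 2.93, 2.29, 2.69 and 1.79 at 16 weeks, and 2.09, 2.35, 3.17 and 2.20 at 24 weeks. The groups overlapped at every time, at 16 and 24 weeks only through control replicate 4. The mean was 2.43 ± 0.50 at 16 weeks and 1.66 ± 0.38 in control (SD, n = 4 each), a log2 difference of 0.76 (SE 0.27, 95% interval 0.20 to 1.33) or 1.70 times. At 24 weeks the difference was 0.79 (95% interval 0.23 to 1.35) and at 8 weeks 0.28 (95% interval -0.28 to 0.84), and none was called. Without 16-week replicate 4 the 16-week difference was 0.98 and was called higher. The macrophage and fibroblast markers given above were higher in the same hearts. Of 9 endothelial markers only Vwf was called, higher by 1.31 log2 units at 16 weeks and 1.19 at 24 weeks. The median of the 9 was 0.08 and 0.19 at these times, and 3 of the 9 were below control at each. The part of these cell types in the Cyp1b1 values was not tested.

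Cyp1a1, the classic AHR target, lay below the array median in all arrays but 1. The 16-week arrays held -1.27, -1.44, -1.30 and -1.41 log2 units, and control arrays -0.86, -1.06, -1.25 and -1.05. The values were 0.19, -1.20, -1.45 and -1.14 at 8 weeks and -1.35, -1.78, -1.31 and -1.05 at 24 weeks. The one high array, 8-week replicate 1, was also the one with the lowest Ephx1, and without it the 8-week difference from control, 0.15 over all arrays, was -0.21. The 16-week arrays were all below the controls, by a mean of -0.30 (SE 0.25, 95% interval -0.83 to 0.23), and at 24 weeks the difference was -0.32 (95% interval -0.85 to 0.21). These intervals rest on the spread shared by the groups, which the high 8-week array widens. The SD was 0.74 at 8 weeks, 0.08 at 16 weeks, 0.30 at 24 weeks and 0.16 in control.

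Cyp27a1, the mitochondrial sterol hydroxylase that makes oxysterols, was the steadiest of the P450s. Its values ran from 3.00 to 3.38 log2 units in control arrays, 3.09 to 3.40 at 8 weeks, 2.56 to 3.26 at 16 weeks and 2.93 to 3.28 at 24 weeks, and all 3 ACF groups overlapped the controls. The differences were 0.02, -0.19 and -0.06 at 8, 16 and 24 weeks (SE 0.14 each), with the 95% interval at 16 weeks from -0.49 to 0.10. The 24-week value was -0.27 on the values as deposited and -0.26 with the array level as a block.

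Por, the reductase that hands electrons to microsomal P450s, was measured by 2 probe sets. The brighter of them held 2.81 to 2.89 log2 units in control arrays, 2.36 to 3.19 at 8 weeks, 2.65 to 2.95 at 16 weeks and 2.80 to 3.08 at 24 weeks. Its differences from control were -0.04, -0.04 and 0.12 (SE 0.14 each), and at 16 weeks the 95% interval was -0.32 to 0.25. The other probe set had differences of -0.03, -0.04 and -0.04 (SE 0.18 each). Both probe sets overlapped control at every time, and at 8 weeks the brighter one spread more widely (SD 0.363) than in control (SD 0.0327).

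**Figure D2:**
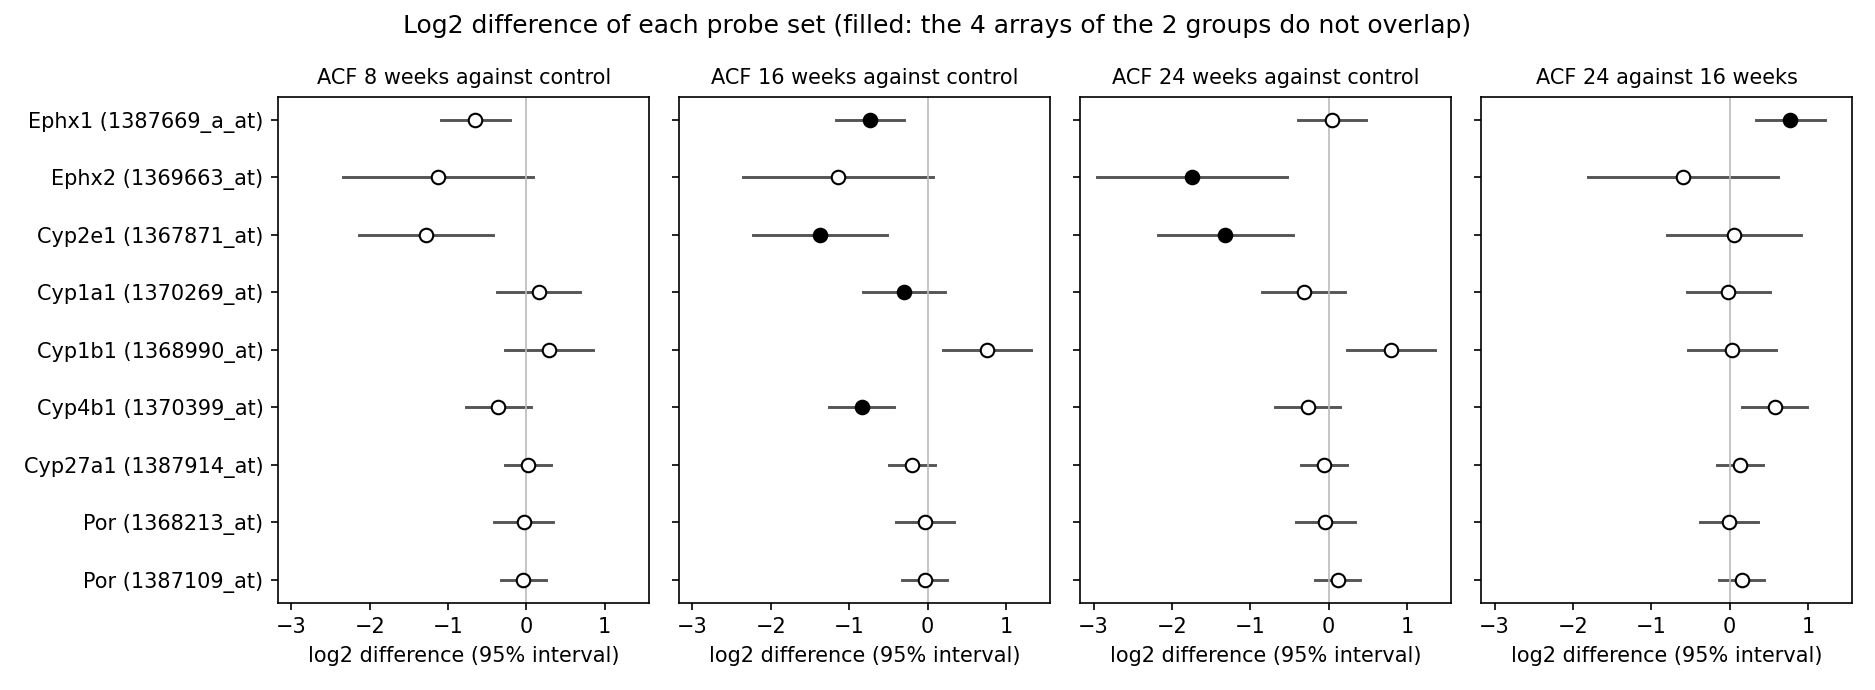
Log2 difference between group means (horizontal axis, log2 units) of each probe set in 4 comparisons, with 95% intervals from the limma fit. Filled points are probe sets whose 4 arrays in each of the 2 groups do not overlap: Ephx1, Cyp2e1, Cyp4b1 and Cyp1a1 at 16 weeks, Ephx2 and Cyp2e1 at 24 weeks, and Ephx1 at 24 against 16 weeks.

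The 3 comparisons with control share the same 4 control arrays. Set side by side, Cyp2e1 had differences of -1.28, -1.37 and -1.32 at 8, 16 and 24 weeks, Ephx1 -0.65, -0.73 and 0.04, Cyp4b1 -0.36, -0.84 and -0.26, Ephx2 -1.12, -1.15 and -1.74, and Cyp1b1 0.28, 0.76 and 0.79. The 24-week means of Ephx1 and Cyp4b1 were 0.78 and 0.57 log2 units above their 16-week means, and those of Cyp2e1 and Ephx2 differed from their 16-week means by 0.06 and -0.60, with 95% intervals that included 0. Between 16 and 8 weeks Ephx1 differed by -0.08 (SE 0.21), and in the arrays of the higher level it was lower at 8 weeks, at -0.84, than at 16 weeks, at -0.61. Between 16 and 8 weeks 0 of the 9 probe sets were called, against 0% of all probe sets with limma. In that comparison 2194 of the 31042 probe sets had an unadjusted p under 0.05, and an unpaired test of the 2 groups as in the methods, adjusted in the same way, called 0. At the methods' own threshold, a fold over 1.5 with an unadjusted p under 0.05, it passed 208 probe sets there (0.67% of all) and 0 of the 9. Against control this threshold passed 1 of the 9 at 8 weeks (Cyp2e1, lower; 0.992% of all probe sets), 3 at 16 weeks (Ephx1, Cyp2e1 and Cyp4b1, lower; 3.98%) and 2 at 24 weeks (Ephx2, lower, and Cyp1b1, higher; 2.08%). For 24 against 16 weeks it passed Ephx1, higher at 24 weeks (0.532%).

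The gene whose pattern over the 16 arrays was most like that of Ephx1, among 13862 genes compared, was Dbp, a PAR bZIP transcription factor of the circadian clock's output (r = 0.90, rho = 0.86). Dbp held 3.72, 3.77, 3.29 and 3.60 log2 units in control, 0.55, 3.17, 2.62 and 1.93 at 8 weeks, 1.08, 1.10, 1.09 and 0.93 at 16 weeks, and 3.19, 2.80, 3.24 and 3.04 at 24 weeks. The 8-week arrays had the same order in both genes, with replicate 1 the lowest and replicate 2 the highest. The likeness was r = 0.90 after subtraction of group means. Without the 2 arrays farthest from the median of Ephx1 it was r = 0.87. The within-group value rests mostly on the 8-week arrays, which had the widest spread of both genes. There the SD was 0.59 for Ephx1 and 1.13 for Dbp, against 0.12 to 0.20 and 0.08 to 0.22 in the other groups. Dbp was picked on these same arrays, so these values of r describe them and test nothing. The next most alike were Tcap, a cap protein of the sarcomere's Z-disc (r = 0.88), and Nr1d2, the clock repressor REV-ERB beta (r = 0.87). The points share their arrays and the centring, and the hour of tissue collection that goes with each array was not tested.

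**Figure D3:**
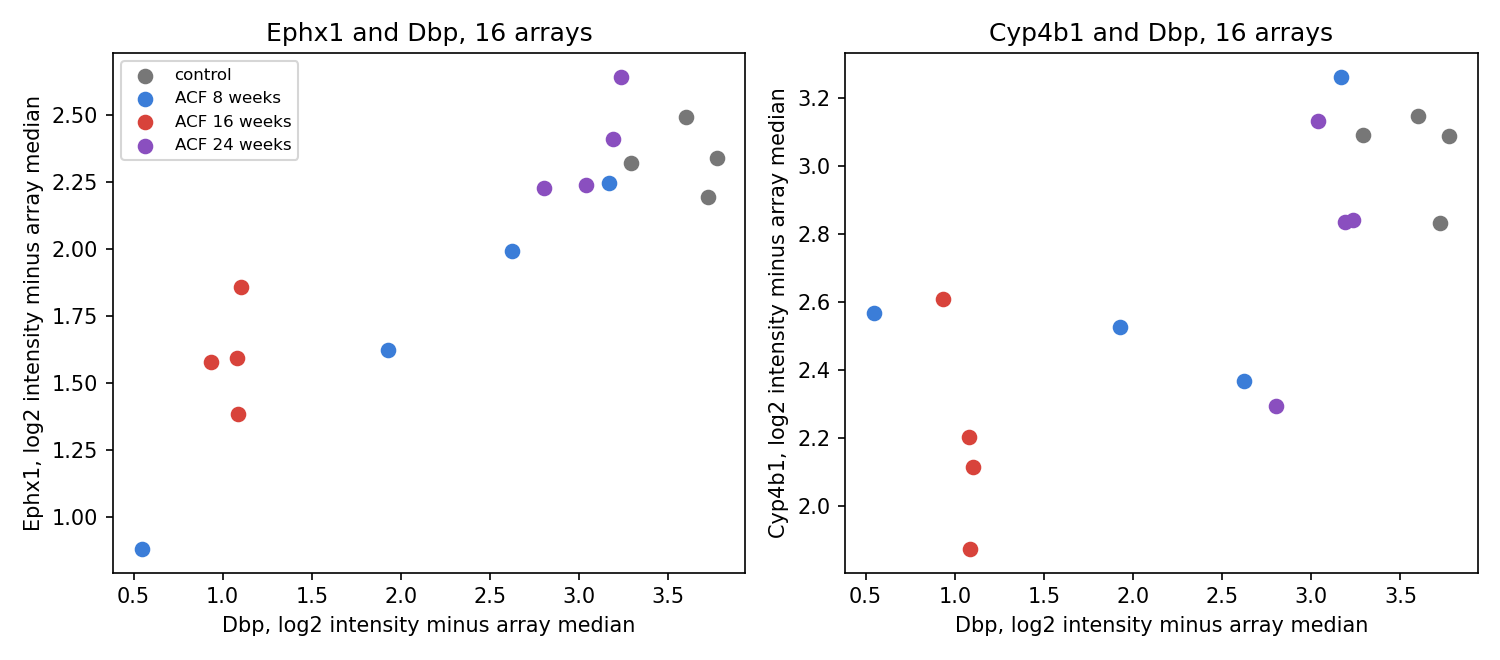
Ephx1 (left) and Cyp4b1 (right) against Dbp in the 16 arrays, all in log2 intensity minus the array median, coloured by group. In Ephx1 the 16-week arrays and 8-week replicate 1 (0.88 for Ephx1, 0.55 for Dbp) lie at the lower left and the control and 24-week arrays at the upper right; Cyp4b1 is more scattered.

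For the other genes the same ranking gave other names. Cyp4b1 was most like Kynu, an enzyme of tryptophan breakdown (r = 0.89), Kank3 (r = 0.88) and Igsf1 (r = 0.87). Cyp2e1 was most like Eci1 (r = 0.87), Chrnd (r = 0.86) and Decr1 (r = 0.85), of which Eci1 and Decr1 are mitochondrial enzymes for the oxidation of unsaturated fatty acids and Chrnd is a subunit of the acetylcholine receptor of muscle. Cyp1b1 was most like Procr, the endothelial receptor of protein C (r = 0.89), Synpo, an actin-binding protein (r = 0.87), and Tmem97, a membrane protein of cholesterol handling (r = 0.85). For Ephx2, Def8 (r = 0.80), Spry2, an inhibitor of growth factor signalling (r = 0.80), and Galnt18 (r = 0.79) were most alike. Cyp27a1 was most like Tpcn1 (r = 0.86), Vsig10l (r = 0.81) and Hsf1, the heat shock factor (r = 0.81). Por was most like Nhsl3 (r = 0.89), Prr5 (r = 0.82) and Ddr1, a collagen receptor (r = 0.81), and Cyp1a1 like Ctxn1 (r = 0.81), Gpr50 (r = 0.78) and Igfbp2 (r = 0.78). Kynu, Ctxn1 and Gpr50 had low signals, with means below the array median in every group. In control these means were -1.47, -1.33 and -1.87 log2 units. At 16 weeks Kynu differed from control by -0.26 (adjusted p = 0.138 in limma). Without the 2 arrays farthest from the median, r was between 0.53 and 0.89 over all these pairs, 0.53 for Cyp27a1 and Vsig10l. Between Ephx1 and Cyp4b1 themselves r was 0.62 over the 16 arrays and 0.37 after subtraction of group means.

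The factors that control P450 genes were taken as a list of 17, of which 16 were measured. At 16 weeks 4 of the 16 were called lower and 0 higher, and the list's median was -0.23 log2 units, against -0.011 over all probe sets. Beside this and each list below, 1.85% of all probe sets were called lower and 3.62% higher at 16 weeks. The lists were chosen with earlier results of these data known, so their counts are a description. Dbp averaged 1.05 ± 0.08 at 16 weeks and 3.60 ± 0.22 in control (SD, n = 4 each), a log2 difference of -2.54 (SE 0.35, adjusted p = 0.000888 in limma). Its relatives Tef, at -0.99 (adjusted p = 0.00257), and Hlf, at -0.82 (adjusted p = 0.0145), were lower too, so that all 3 PAR bZIP factors were called. Nr0b2, the nuclear receptor SHP that represses bile acid genes in liver, was at -0.70 (adjusted p = 0.0165), with overlapping arrays. At 8 and 24 weeks 0 of the 16 were called. Dbp was at -1.53 at 8 weeks (adjusted p = 0.16) and -0.53 at 24 weeks (adjusted p = 0.496), and its 24-week mean was 2.02 log2 units above that at 16 weeks (adjusted p = 0.107). At 24 weeks the smallest adjusted p was that of Nr1i2, the xenobiotic receptor PXR, at -0.51 (adjusted p = 0.0673).

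Enzymes that release arachidonate and turn it into prostanoids and leukotrienes, the pathways beside the P450 route to EETs, were taken as a list of 15. At 16 weeks 7 of the 15 were called higher and 0 lower, against 3.62% of all probe sets called higher and 1.85% lower. The list median was 0.56 log2 units, against -0.011 over all probe sets. Pla2g4a, the cytosolic phospholipase that frees arachidonate, was at 1.10 (SE 0.21, adjusted p = 0.00633) and Alox5ap, the activating protein of 5-lipoxygenase, at 0.89 (adjusted p = 0.00778). Ptgis, prostacyclin synthase, was at 0.77 (adjusted p = 0.0127) and Tbxas1, thromboxane synthase, at 0.56 (adjusted p = 0.0051), both of them P450s by their fold. The remaining 3 called genes were between 0.44 and 1.82. Macrophages also express several of these genes, and with 8 of 10 macrophage markers called higher in the same arrays their part was not tested. At 8 and 24 weeks 0 of the 15 were called, and Alox5, the lipoxygenase of leukotriene synthesis, was at 0.56 (adjusted p = 0.0976) and 0.48 (adjusted p = 0.07).

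The other P450s were mostly at or near control. Of 21 measured P450s of fatty acids and eicosanoids, 1 was called at 16 weeks: Cyp4v3, a fatty acid hydroxylase, averaged 3.06 ± 0.18 at 16 weeks and 2.37 ± 0.17 in control (SD, n = 4 each), a log2 difference of 0.68 (SE 0.14, adjusted p = 0.0115), and was at 0.67 at 24 weeks (adjusted p = 0.0528). Of 17 xenobiotic P450s, 0 were called, and their differences at 16 weeks lay between -0.22 and 0.14. Of 15 P450s of sterols, steroids, vitamin D and retinoids, 0 were called, with differences between -0.41 and 0.45. The smallest adjusted p of these lists at 16 weeks belonged to Cyp2g1 (-0.22, adjusted p = 0.424) and Cyp11a1, which opens steroid synthesis (-0.37, adjusted p = 0.242). The other epoxide hydrolases had differences of 0.42 for Lta4h, the leukotriene hydrolase (adjusted p = 0.0755), and 0.80 for Ephx4 (adjusted p = 0.146), neither of them called.

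**Figure D4:**
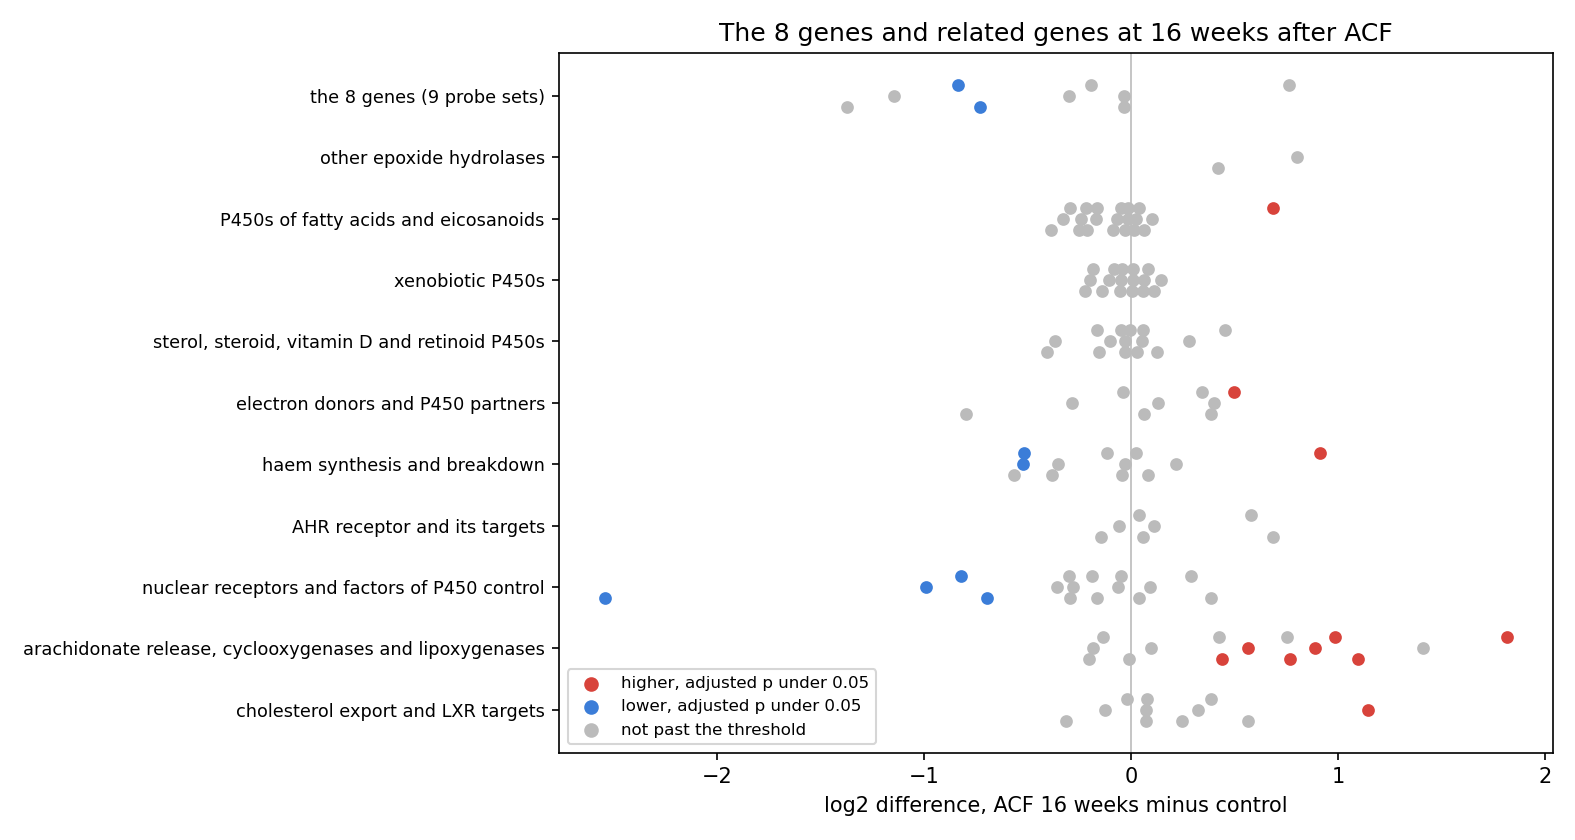
Log2 difference between 16-week ACF and control means (horizontal axis) for the 9 probe sets and, 1 point a gene, for 10 lists of related genes. Points called higher are red, called lower blue and the rest grey. Blue are 2 of the 9 probe sets, 4 of 16 P450 control factors and 2 of 12 haem genes (1.85% of all probe sets). Red are 7 of 15 arachidonate enzymes (3.62% of all probe sets). Also red is 1 gene each of the fatty acid P450s, electron partners, haem genes and cholesterol export, while 0 of 17 xenobiotic P450s are coloured.

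Genes that serve P450s as partners showed few calls. Among 9 measured electron donors and partners, 1 was called higher at 16 weeks, Pgrmc1, a haem-binding partner of P450s (0.50, SE 0.13, adjusted p = 0.0379). Of 12 genes of haem synthesis and breakdown, 1 was called higher and 2 lower. Hmox1, the inducible haem oxygenase, was at 0.91 (adjusted p = 0.0423), Alad, an early enzyme of haem synthesis, at -0.52 (adjusted p = 0.0192) and Blvrb, a biliverdin reductase, at -0.52 (adjusted p = 0.0157). Of 7 genes of the AHR and its targets 0 were called at 16 weeks, where Tiparp, an AHR-induced repressor of the receptor, was at 0.68 (adjusted p = 0.106). Among 11 genes of cholesterol export, which oxysterols regulate through LXR, Soat1, the cholesterol-esterifying enzyme, was called higher at 1.14 (SE 0.24, adjusted p = 0.0111). At 8 and 24 weeks 0 genes of these 4 lists were called, and at 24 weeks Hmox1 was at 1.00 (adjusted p = 0.0752), Apoe at 0.66 (adjusted p = 0.0735) and Cyp1a2 at 0.41 (adjusted p = 0.0735).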

How the data were processed

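The authors deposited log2 intensities per probe set, made by RMA in Affymetrix Expression Console 1.2, per the labels' processing notes. The table holds 31099 probe sets, from which 57 manufacturer controls were left out, and all 16 columns were mapped to arrays by their labels. No raw intensities were processed here, and the number of arrays limits the precision.

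Each array was centred on its median. Group means were fitted with limma 3.58.1 in R 4.3.3, and p was adjusted over all 31042 probe sets by the Benjamini-Hochberg method. Of these, 20826 carry 1 symbol, 436 several and 9780 none, and 20758 gene IDs were found in the RefSeq table of GRCr8, which changed 0 symbols. Related genes were read by their probe set with the highest mean. Promoter windows are from RefSeq (GRCr8). The design text calls the arrays biological replicates.

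The genes and lists were chosen with earlier results of these data known. Named are all 9 probe sets, up to 4 called genes of each list and comparison (or the 1 with the smallest adjusted p), the 3 genes most correlated with each gene, and up to 3 markers per cell type. The functions were tested on simulated data. Alternatives were the values as deposited, cyclic loess, 1 probe set per gene, the upper 50% of probe sets, the methods' test (unpaired, equal variance) at its own threshold and after adjustment, a robust prior with trend, blocks for replicate number and for array level, the 9 arrays of the higher level, and each array left out. Figures were drawn with matplotlib 3.10.9.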

Additional observations from a re-analysis of the deposited data

Results flagged for a closer look

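The Ephx2 value of control replicate 1, 3.59 log2 units, stood apart from the other 3 control arrays, at 2.88 to 2.99: its gap to the nearest of them was 0.851 of the range of the group, above Dixon's critical value for 4 samples. Of 36 groups of 4 arrays checked, 1 stood out in this way, a rate that chance alone exceeds on average. Without this array the 24-week difference of Ephx2 from control was -1.59 log2 units, against -1.74 with it.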

How the results depend on the processing

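The 9 probe sets gave 45 differences and 737 values under the alternatives, of which 726 moved by less than the SD of the arrays, 11 moved by more and 0 changed the sign of a called value. The called differences were only those of Ephx1 and Cyp4b1 at 16 weeks, and some uncalled ones did change sign. Ephx1 between 16 and 8 weeks went from -0.08 to 0.23 in the arrays of the higher level. Cyp1a1 at 8 weeks went from 0.15 to -0.21 without 8-week replicate 1. Counts of called probe sets over the whole array moved far more. The methods' test is given after the same Benjamini-Hochberg adjustment, which the methods do not state; at their own threshold, a fold over 1.5 with an unadjusted p under 0.05, it passed 308, 1237 and 647 probe sets at 8, 16 and 24 weeks against control, 208 between 16 and 8 weeks and 165 between 24 and 16 weeks. At 8 weeks the count was 10, against 1 on the values as deposited, 2 with the methods' test after adjustment, 42 with the array level as a block and 55 with only arrays of the higher level, and 1 to 15 with an array left out. At 16 weeks it was 1698, against 88 with the methods' test after adjustment and 743 (without control replicate 1) to 2103 (without 16-week replicate 4) with an array left out. On the values as deposited 462 were higher and 1259 lower at 16 weeks, against 1123 and 575 after centring. At 24 weeks the count was 136, against 3839 as deposited (145 higher, 3694 lower), 0 with the methods' test after adjustment and 4 with the array level as a block, and 4 (without control replicate 2) to 873 (without 24-week replicate 4) with an array left out. Between 16 and 8 weeks it was 0, against 224 with only arrays of the higher level and 0 to 2 with an array left out. Between 24 and 16 weeks it was 4, against 1 as deposited, 0 with cyclic loess, 0 with 1 probe set per gene, 1 with the upper 50% of probe sets, 2 with the methods' test after adjustment, 0 with the array level as a block and 0 to 7 with an array left out. The cause of these moves was not tested. At 24 weeks there is no array of the higher level, so that alternative gives no value there.

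Replicate numbers did not pair the arrays: deviations from group means correlated at 0.017 on average between arrays of the same number (-0.272 to 0.238), and 4 of 16 arrays correlated best with their own number. With the replicate block the counts were 1 at 8 weeks against control and 0 for 24 against 16 weeks. At 16 weeks the block added Cyp2e1 to the genes called lower, and with the methods' test 0 of the 9 probe sets were called after adjustment and 3 at its own threshold (Ephx1, Cyp2e1 and Cyp4b1, all lower).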
